A study of Mus musculus with 12 samples.

Results

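The genes described here are 28 genes of cholesterol synthesis and of its control by SREBP2, out of 36047 genes in the liver RNA-seq tables. They were listed by symbol for their known roles, with earlier results of these data known. The list holds 6 genes of acetyl-CoA supply and the mevalonate steps (Acss2, Acat2, Hmgcs1, Mvk, Pmvk and Mvd). These 6 are called the mevalonate genes below, although Acss2 supplies acetyl-CoA and is not a mevalonate step. Then come 3 of the isoprenoid steps (Idi1, Fdps and Ggps1) and 3 of squalene and lanosterol synthesis (Fdft1, Sqle and Lss). It also holds 9 genes of the sterol ring and side-chain steps (Cyp51, Tm7sf2, Lbr, Msmo1, Nsdhl, Hsd17b7, Ebp, Sc5d and Dhcr7), 4 of the SREBP2 sensing machinery (Srebf2, Scap, Insig1 and Insig2), and Stard4, Soat2 and Rdh11. Each symbol matched 1 gene. All 28 genes passed the filter on low counts and were among the 14670 genes tested.

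The livers came from adult male C57Bl/6J mice fed for 7 days, then kept without food for some hours before they were killed. The 4 groups of 3 mice were a regular-fat control diet (RF.Ctrl), a regular-fat diet restricted in sulfur amino acids (RF.SAAR), a high-fat control diet (HF.Ctrl) and a high-fat restricted diet (HF.SAAR). All 4 diets, controls included, lacked cysteine, and the SAAR diets also held less methionine, with glutamic acid in its place. The regular-fat and the high-fat diets came from different suppliers, so fat and supplier cannot be told apart. By the paper, all mice got an injection of deuterated water and then drank water enriched in it. Mice were housed singly, polyA-selected RNA was sequenced from frozen crushed liver, and the comparisons ask how SAAR, dietary fat and both together change the transcriptome. The labels give no replicate number, so mice are numbered in order of accession and nothing pairs them across groups.

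Cells make cholesterol from acetyl-CoA. Acetyl-CoA is built into mevalonate, mevalonate into isoprenoid units, these into squalene, and squalene is closed to lanosterol, whose ring is then trimmed and reduced to cholesterol. When sterols in the endoplasmic reticulum are low, SCAP carries the transcription factor SREBP2 to the Golgi, where it is cut, and the released part switches on most enzyme genes of the pathway. When sterols are high, INSIG proteins hold SCAP and SREBP2 in the endoplasmic reticulum. The liver is a main site of this synthesis.

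Total estimated counts ran from 16203094 to 21230092 per mouse. Summed hepatocyte markers (8 of 8 found, albumin the most abundant) ran from 69020 to 92510 normalized CPM, that is, CPM computed on the TMM-scaled library size, the scale used throughout. Kupffer cell and macrophage markers summed to at most 434.2 normalized CPM and liver endothelial markers to at most 267.1. Pancreatic acinar genes, which the liver should lack, stood out in 5 livers. The 22 genes of that list, all found, had a summed normalized CPM that ran from 74.2 up to 1424 over the RF.Ctrl livers, from 40.88 up to 85.78 over RF.SAAR, from 67.67 up to 6292 over HF.Ctrl and from 67.13 up to 17470 over HF.SAAR. The 5 livers were RF.Ctrl mouse 1, HF.Ctrl mice 1 and 2, and HF.SAAR mice 2 and 3. Prss1 was at 0 in the libraries other than HF.SAAR mice 2 and 3, Cuzd1 was at 0 in RF.Ctrl mouse 2, and the other acinar genes had counts in every mouse. The calls, the medians and the 3 genes of smallest p in each comparison are given below with and without these 5 mice. The fit without them leaves 1 mouse in each high-fat group. As an exception, the median of HF against RF over both diets is given with all mice and with single mice left out. In whole liver, fewer cells of a type and less RNA per cell cannot be told apart.

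The sequences just upstream of the start sites were searched for the letters that SREBP2 and its partner factors are known to read. SREBP2 binds sterol regulatory elements, often together with NF-Y at CCAAT boxes and Sp1 at GC boxes. Of the 28 genes, 23 had an entry in the RefSeq promoter table (GRCm38.p6), and Fdps, Soat2, Fdft1, Sqle and Stard4 had none. In the 250 bases before the start, with any listed start and both strands counted, CCAAT was found for 21 of the 23 genes (91.3%) and for 40.3% of the 11191 tested genes with an entry. At least 2 CCAAT matches were found for 12 of them (52.2%), against 14.4% of tested genes. GGGCGG was found for 20 (87%), against 59.9%. The E-box CACGTG was found for 6 (26.1%), against 9.25%. A sterol regulatory element core written as CACNCCAC was found for 3 (13%), Insig1, Hmgcs1 and Acat2, against 6.68%, and its form CACCCCAC, contained in the former, for Hmgcs1 and Acat2 (8.7%), against 3.44%. Among all 27025 genes with an entry the shares were 37.5% for CCAAT, 35.4% for GGGCGG, 6.86% for CACGTG, 6.05% for CACNCCAC and 2.98% for CACCCCAC. These matches are descriptions of letters in a window and not binding sites.

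The stretches printed here are those parts of the same windows that lie in no annotated exon, each 5′ to 3′ on the gene's own strand, with capitals marking CACNCCAC or CCAAT read on either strand. Mvk (mevalonate kinase) is shown because it held the most CCAAT matches, and its stretch is chr5:114444061-114444268 of GRCm38, plus strand. Hmgcs1 (cytosolic HMG-CoA synthase, chr13:119690101-119690350, plus strand) and Acat2 (acetoacetyl-CoA thiolase, chr17:12960748-12960975, minus strand) are the genes with CACCCCAC. Acss2 (cytosolic acetyl-CoA synthetase, chr2:155517793-155517947, plus strand) and Lbr (lamin B receptor, also a C14 sterol reductase, chr1:181842402-181842651, minus strand) are shown because their RNA differed between SAAR and Ctrl. The Acss2 stretch held no match, and the 1 CCAAT match of its window lay in an annotated exon. The Lbr stretch precedes a listed start within the annotated gene, whose 5′ end lies farther upstream at chr1:181843046.
Mvk: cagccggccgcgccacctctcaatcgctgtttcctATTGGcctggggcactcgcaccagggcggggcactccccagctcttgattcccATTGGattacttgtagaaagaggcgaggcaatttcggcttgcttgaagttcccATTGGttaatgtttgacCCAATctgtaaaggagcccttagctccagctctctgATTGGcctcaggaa
Hmgcs1: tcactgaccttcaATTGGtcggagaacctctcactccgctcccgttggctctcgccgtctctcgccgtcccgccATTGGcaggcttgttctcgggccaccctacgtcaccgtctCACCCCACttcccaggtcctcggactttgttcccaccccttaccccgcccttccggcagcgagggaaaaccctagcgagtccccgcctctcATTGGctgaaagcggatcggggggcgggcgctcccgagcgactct
Acat2: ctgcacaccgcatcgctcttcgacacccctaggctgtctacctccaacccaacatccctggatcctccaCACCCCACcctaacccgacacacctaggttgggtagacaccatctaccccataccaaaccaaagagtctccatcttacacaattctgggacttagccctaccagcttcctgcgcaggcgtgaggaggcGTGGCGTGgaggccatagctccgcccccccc
Acss2: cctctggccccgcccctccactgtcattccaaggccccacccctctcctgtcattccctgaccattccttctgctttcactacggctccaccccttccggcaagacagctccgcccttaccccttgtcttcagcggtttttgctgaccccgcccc
Lbr: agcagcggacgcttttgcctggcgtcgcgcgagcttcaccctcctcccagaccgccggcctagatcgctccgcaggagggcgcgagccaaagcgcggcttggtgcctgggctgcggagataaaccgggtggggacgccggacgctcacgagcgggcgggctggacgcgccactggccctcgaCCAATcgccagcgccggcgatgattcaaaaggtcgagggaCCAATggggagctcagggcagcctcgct

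Levels of the 28 genes, given per transcript length as TPM and averaged over the 12 mice, ran from 2.80 for Lbr to 234.5 for Fdps, which makes farnesyl diphosphate. Lbr ranged from 1.47 to 3.97 TPM over the mice and Fdps from 152.6 to 297.2 TPM. Besides Lbr, the lowest were Mvd (mevalonate diphosphate decarboxylase) at 6.29 TPM, Ggps1 (geranylgeranyl diphosphate synthase) at 7.31, Srebf2 itself at 8.61 and Lss (lanosterol synthase) at 9.86. These last 4 levels sat close together and no test set them apart. After Fdps, the most abundant were Sc5d (sterol C5 desaturase) at 170.7 TPM, Insig2 at 157.6 and Idi1 (isopentenyl diphosphate isomerase) at 106.9. Of the SREBP2 sensing genes, Scap stood at 21.4 TPM and Insig1 at 67.5. In every mouse Insig2 was higher than Insig1 in TPM, by 1.51 to 3.83 times with a median of 2.15. Between 8.61 and 106.9 TPM lay most enzymes, among them Hsd17b7 at 13.8 TPM, Mvk at 16.1, Rdh11 at 17.1, Dhcr7 at 19.1, Sqle at 20.9, Soat2 at 21.9, Stard4 at 25.2, Acat2 at 28.8, Pmvk at 33.0, Fdft1 at 40.2, Nsdhl at 41.4, Acss2 at 42.2, Cyp51 at 54.6, Hmgcs1 at 61.6, Tm7sf2 at 81.1, Msmo1 at 82.5 and Ebp at 96.5. One transcript held 50.02% (Sc5d) to 99.95% (Nsdhl) of a gene's counts. The ratio of the highest to the lowest mouse in normalized CPM ran from 1.43 for Srebf2 to 2.72 for Acss2.

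**Figure D1:**
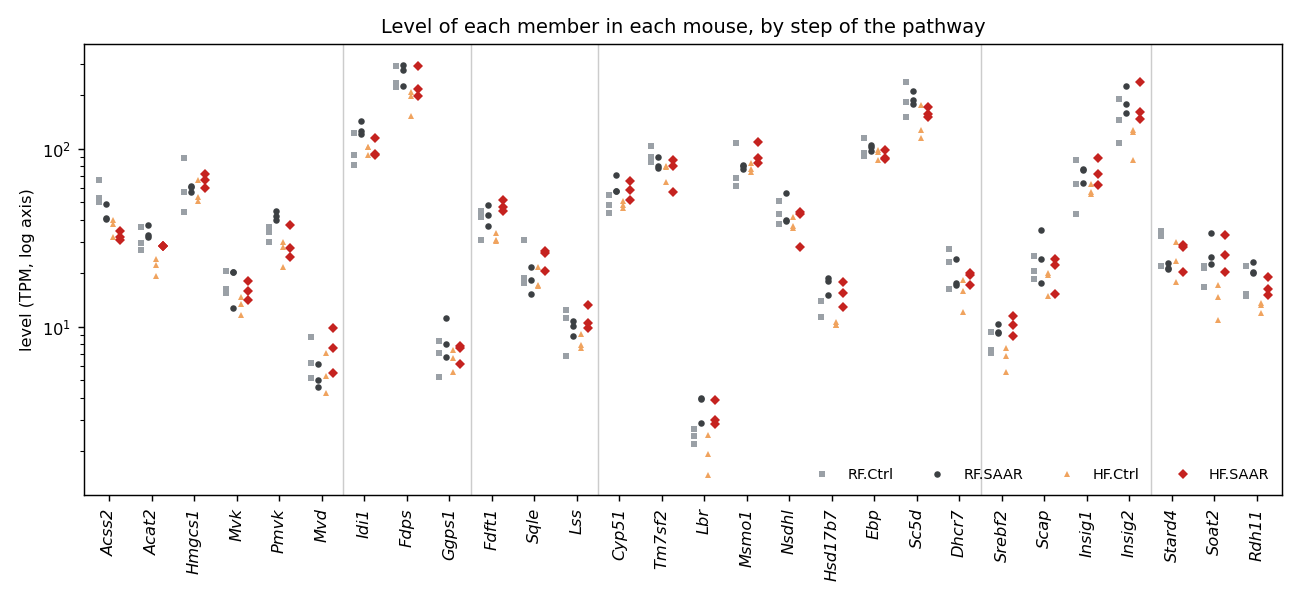
Level of each of the 28 genes in TPM on a log axis, grouped by step of the pathway, with 1 point per mouse for the 12 mice colored by diet group. Fdps sat highest and Lbr lowest, and within most genes the 4 groups lay over each other.

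Summed over the 28 genes, normalized CPM was 3074 ± 378 in RF.Ctrl, 2718 ± 204 in RF.SAAR, 2842 ± 207 in HF.Ctrl and 2739 ± 442 in HF.SAAR (mean ± SD, n = 3 mice each). The single mice ran from 2794 to 3504, from 2540 to 2940, from 2616 to 3025 and from 2424 to 3244. All 4 groups overlapped on this scale. Summed in TPM, the groups stood at 1535 ± 207.2, 1648 ± 94.47, 1258 ± 72.15 and 1517 ± 98.57 in the same order. On that scale both SAAR means lay above their controls, and every HF.Ctrl mouse (1175 to 1303) lay below every mouse of the other groups. These sums are descriptions and were not tested.

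Few of the 28 genes changed with SAAR, and Acss2 was the gene called in each comparison of SAAR with its control. Acss2 makes acetyl-CoA from acetate in the cytosol and nucleus and lies at chr2:155517948-155585724 of GRCm38, plus strand (ENSMUSG00000027605). Its normalized CPM was 149.7, 128.5 and 175.3 in RF.Ctrl and 96.1, 96.65 and 84.38 in RF.SAAR. It was 108.3, 108.8 and 102.8 in HF.Ctrl and 74.58, 79.88 and 64.48 in HF.SAAR. On this scale no mouse of 1 group lay within the range of another group. The order was RF.Ctrl, HF.Ctrl, RF.SAAR, HF.SAAR from high to low. In TPM, HF.Ctrl (37.83, 31.94 and 39.64) overlapped HF.SAAR (34.33, 30.87 and 31.8), and the RF.SAAR mean of 43.25 lay above the HF.Ctrl mean of 36.47. By a rule chosen after its values were seen, 0.143% of the tested genes had 4 groups without any overlap, and Acss2 was the only one of the 28.

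A gene was called where its adjusted p was under 0.05. In edgeR's quasi-likelihood test with Benjamini-Hochberg adjustment over all tested genes, Acss2 fell by 0.71 (log2, SE 0.12) in RF.SAAR against RF.Ctrl, with an adjusted p of 0.0118, a change of -38.9%. In HF.SAAR against HF.Ctrl it fell by 0.55 (SE 0.12, adjusted p 0.0359), a change of -31.6%. Averaged over both fat levels it fell by 0.63 (SE 0.09, adjusted p 0.000743), a change of -35.3%. The difference between both responses was 0.16 (SE 0.17, unadjusted p 0.361), which did not pass the test. By unadjusted p Acss2 ranked at 66 of 14670 genes in the regular-fat comparison, at 237 in the high-fat comparison and at 101 over both. Over the alternative settings tried, the call over both fat levels held in 21 of 22, with adjusted p from 1.62e-09 to 0.0783. The setting in which it was lost left out the 5 mice with high pancreatic acinar RNA, where Acss2 stood at -0.60 over both, at -0.72 (adjusted p 0.0862) on the regular-fat and at -0.48 (0.607) on the high-fat diets. The regular-fat call held in 19 of 23 settings (8.96e-06 to 0.0862) and was lost without RF.Ctrl mouse 3 (adjusted p 0.057) or RF.SAAR mouse 3 (0.0641). The high-fat call held in 13 of 23 settings (0.00157 to 0.607). It was lost without RF.Ctrl mouse 1 (0.051), HF.Ctrl mouse 1 (0.137), mouse 2 (0.0826) or mouse 3 (0.076), and without HF.SAAR mouse 1 (0.118) or mouse 3 (0.145). No setting turned its direction.

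Stard4, which carries cholesterol between membranes in the cytosol, was the other gene called within a fat level (chr18:33199355-33213862, minus strand, ENSMUSG00000024378). Its normalized CPM was 108.7, 132.3 and 149.6 in RF.Ctrl and 65.08, 77.88 and 81.25 in RF.SAAR. It was 118.6, 102.5 and 120.8 in HF.Ctrl and 75.22, 122.5 and 107.1 in HF.SAAR. The regular-fat groups did not overlap, whereas HF.SAAR mouse 2 was higher than every HF.Ctrl mouse. Stard4 fell by 0.80 (SE 0.17, adjusted p 0.0326) in RF.SAAR against RF.Ctrl, a change of -42.6%, and stood at -0.17 (SE 0.17, adjusted p 0.772) in HF.SAAR against HF.Ctrl. Over both fat levels it fell by 0.48 (SE 0.12, adjusted p 0.0265). The difference between the 2 responses was 0.64 (SE 0.24), with an unadjusted p of 0.019 and an adjusted p of 0.999, so a difference of response between fat levels was not shown. The regular-fat call held in 13 of 23 settings (0.000811 to 0.149). It was lost without RF.Ctrl mouse 2 (0.105) or mouse 3 (0.149), RF.SAAR mouse 1 (0.121), mouse 2 (0.0845) or mouse 3 (0.0938), or HF.Ctrl mouse 1 (0.0581). With the 5 mice of high pancreatic acinar RNA left out, it was called at -0.91 (0.0323), and at -0.81 (0.0216) over both fat levels, while the difference between the responses was 0.21. The call over both fat levels held in 15 of 22 settings (0.00399 to 0.0836) and was lost without RF.Ctrl mouse 2 (0.0629) or mouse 3 (0.0733), RF.SAAR mouse 1 (0.0665), or HF.Ctrl mouse 1 (0.0711) or mouse 3 (0.0611).

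Soat2 and Lbr were higher in SAAR when both fat levels were averaged. SOAT2 joins cholesterol to fatty acids for storage and for lipoproteins (chr15:102150526-102163469, plus strand, ENSMUSG00000023045). Soat2 was at 37.59, 43.94 and 44.85 normalized CPM in RF.Ctrl and at 55, 42.94 and 42.22 in RF.SAAR, groups that overlapped. It was at 34.61, 29.02 and 34.75 in HF.Ctrl and at 45.2, 42.58 and 55.77 in HF.SAAR. Every HF.SAAR mouse was above every HF.Ctrl mouse. Soat2 rose by 0.35 (SE 0.10, adjusted p 0.0446, edgeR) over both fat levels, a change of 27.2%, with 0.15 (adjusted p 0.726) on the regular-fat diets and 0.55 (SE 0.14, adjusted p 0.0608) on the high-fat diets. The difference between both responses was 0.40 (SE 0.19, unadjusted p 0.0581, adjusted p 0.999).

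Lbr (chr1:181815335-181843046, minus strand, ENSMUSG00000004880) was at 7.667, 6.701 and 8.994 normalized CPM in RF.Ctrl and at 10.23, 8.854 and 10.63 in RF.SAAR. It was at 7.099, 5.782 and 7.315 in HF.Ctrl and at 7.989, 9.869 and 10.03 in HF.SAAR. On the regular-fat diets RF.Ctrl mouse 3 lay within the range of RF.SAAR, and on the high-fat diets the groups did not overlap. Lbr rose by 0.41 (SE 0.11, adjusted p 0.0457, edgeR) over both fat levels, a change of 32.7%, with 0.35 (adjusted p 0.359) on the regular-fat and 0.47 (adjusted p 0.202) on the high-fat diets. The difference between these was 0.12 (SE 0.23). Both calls were close to the threshold of 0.05. The Soat2 call held in 8 of 22 settings (0.0104 to 0.485) and the Lbr call in 8 of 22 (0.00907 to 0.606). Leaving out any 1 of 10 mice lost the Soat2 call (0.0526 to 0.118), the exceptions being RF.SAAR mouse 2 and HF.SAAR mouse 2. The Lbr call was lost without any 1 of 9 mice (0.0546 to 0.113), the exceptions being RF.Ctrl mouse 3, RF.SAAR mouse 2 and HF.SAAR mouse 1. In the fit without the 5 mice of high pancreatic acinar RNA, Soat2 stood at 0.22 and Lbr at 0.22 over both fat levels and at 0.36 and 0.11 on the high-fat diets, none called, and the difference between the Soat2 responses was 0.29.

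**Figure D2:**
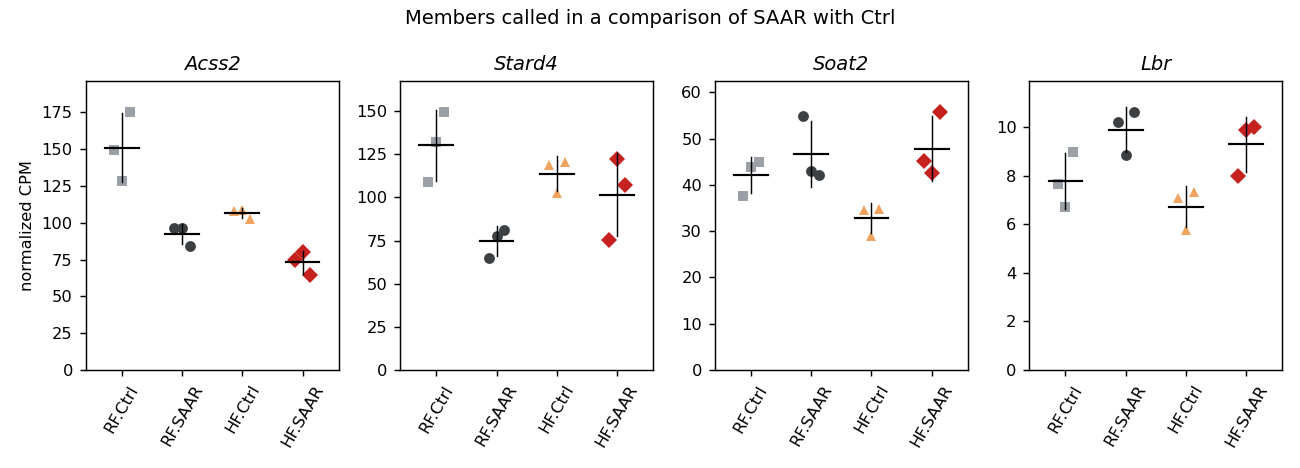
Normalized CPM of Acss2, Stard4, Soat2 and Lbr in each mouse, with 1 point per mouse and a bar at the mean of each group of 3. The 4 groups of Acss2 do not overlap on this scale, whereas HF.SAAR mouse 2 of Stard4 lies above every HF.Ctrl mouse.

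Among all tested genes, 0.6% were called higher and 0.886% lower in RF.SAAR against RF.Ctrl, and of the 28 genes 0 were called higher and 2 lower (Acss2 and Stard4). An unadjusted p under 0.05 was reached by 7 of the 28 genes (25%) and by 13.6% of all tested genes. The median log2 fold change of the 28 genes was -0.17, against -0.00131 over all tested genes, with 19 genes below 0 and 9 above. It was -0.04 without RF.Ctrl mouse 3, -0.08 without RF.SAAR mouse 3 and -0.24 without the 5 mice of high pancreatic acinar RNA. DESeq2 called the same 2 of the 28 genes and 4.85% of the genes it tested. The mevalonate genes ran from -0.71 (Acss2) to 0.07 with 5 of 6 below 0. The squalene and lanosterol genes ran from -0.55 to -0.18 with 3 of 3 below 0, and the ring and side-chain genes from -0.40 to 0.35 with 6 of 9 below 0. With library size alone these counts below 0 were 4 of 6, 3 of 3 and 6 of 9. The isoprenoid genes ran from -0.16 to 0.13 and the SREBP2 sensing genes from -0.10 to 0.09. Groups did not overlap for 8 of the 28 genes, all lower in RF.SAAR (Mvd, Sqle, Tm7sf2, Ebp, Sc5d, Dhcr7, Stard4 and Acss2), and for 18.2% of all tested genes in either direction. With library size alone as the scaling, the split of the 28 genes was 14 above and 14 below 0 and their median -0.00836, while the median of all genes moved by 0.164.

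Dhcr7, which makes the last reduction to cholesterol, had the smallest p among the genes not called on the regular-fat diets. It was at 37.54, 40.51 and 54.39 normalized CPM in RF.Ctrl and at 34.48, 35.26 and 31.07 in RF.SAAR. The groups did not overlap, with RF.Ctrl mouse 3 far above the rest. Its log2 fold change was -0.39 (SE 0.14), with an unadjusted p of 0.0125 and an adjusted p of 0.198 in edgeR's test. It was -0.22 (adjusted p 0.606) without RF.Ctrl mouse 3 and -0.50 without the 5 mice of high pancreatic acinar RNA. Sqle, the squalene epoxidase, stood at -0.55 (SE 0.24, unadjusted p 0.0407) and Mvd at -0.63 (SE 0.32, unadjusted p 0.0719), both with RF.Ctrl mouse 3 highest.

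On the high-fat diets, HF.SAAR against HF.Ctrl, calls were made for 1.01% of all tested genes in the higher and 0.961% in the lower direction, and for 0 and 1 (Acss2) of the 28 genes. An unadjusted p under 0.05 was reached by 4 of the 28 genes (14.3%) and by 12.4% of all tested genes. The median of the 28 was -0.03, against -0.00144 over all tested genes, with 16 genes below 0 and 12 above. Its sign turned without HF.Ctrl mouse 2 (0.03), HF.SAAR mouse 1 (0.05) or HF.SAAR mouse 3 (0.05), and without the 5 mice of high pancreatic acinar RNA (0.06). It was -0.09 without HF.Ctrl mouse 3 and -0.17 without HF.SAAR mouse 2. DESeq2 called Acss2 and Soat2 of the 28 genes and 4.71% of the genes it tested. The squalene and lanosterol genes ran from 0.01 to 0.28 with 3 of 3 above 0, but Lss (0.01) and Sqle (0.05) lay near 0. The same genes were all below 0 on the regular-fat diets, and none was called at either fat level. Both of these signs were the same with library size alone. Each of these genes was highest of its group in RF.Ctrl mouse 3 and in HF.SAAR mouse 2. Their signs without these mice are not given here. The ring and side-chain genes ran from -0.36 to 0.47 with 7 of 9 below 0, but 3 of 9 with library size alone, and the sensing genes from -0.11 to 0.37. Groups did not overlap for 5 of the 28 genes, 4 higher in HF.SAAR (Fdft1, Lbr, Srebf2 and Soat2) and 1 lower (Acss2), and for 17.9% of all tested genes. With library size alone the split was 21 above and 7 below 0, the median 0.14, and the median of all genes moved by 0.166. Under that scaling Soat2 was called (adjusted p 0.0259) and Acss2 was not (0.0814), with 4.9% of all tested genes called. The direction of the list as a whole on these diets thus changed with the scaling and with single mice.

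Over both fat levels, 3.22% of all tested genes were called higher and 3.7% lower, and of the 28 genes 2 were called higher (Soat2 and Lbr) and 2 lower (Acss2 and Stard4). An unadjusted p under 0.05 was reached by 7 of the 28 (25%) and by 20.3% of all tested genes. The median of the 28 was -0.08, with 20 genes below 0 and 8 above. It lay nearer 0 without RF.Ctrl mouse 3 (-0.02), HF.SAAR mouse 1 (-0.04), HF.SAAR mouse 3 (-0.05) or RF.SAAR mouse 3 (-0.05). It lay farther from 0 without HF.SAAR mouse 2 (-0.18), RF.Ctrl mouse 1 (-0.14) or HF.Ctrl mouse 3 (-0.14), and was -0.11 without the 5 mice of high pancreatic acinar RNA. All 6 mevalonate genes and all 3 isoprenoid genes were below 0, of which only Acss2 was called, and with library size alone 3 of the 6 and 0 of the 3 were below 0. DESeq2 called 9.17% of the genes it tested and 5 of the 28, these 4 and Ebp (sterol delta8-delta7 isomerase), which stood at -0.29 with an adjusted p of 0.0597 in edgeR's test. With library size alone 18 of the 28 were above 0 and the median was 0.08, the median of all genes moving by 0.163. Under that scaling Acss2 was the only gene called lower, and 4 were called higher (Hsd17b7, Lbr, Soat2 and Srebf2), where 1.87% of all tested genes were called lower and 14.8% higher.

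**Figure D3:**
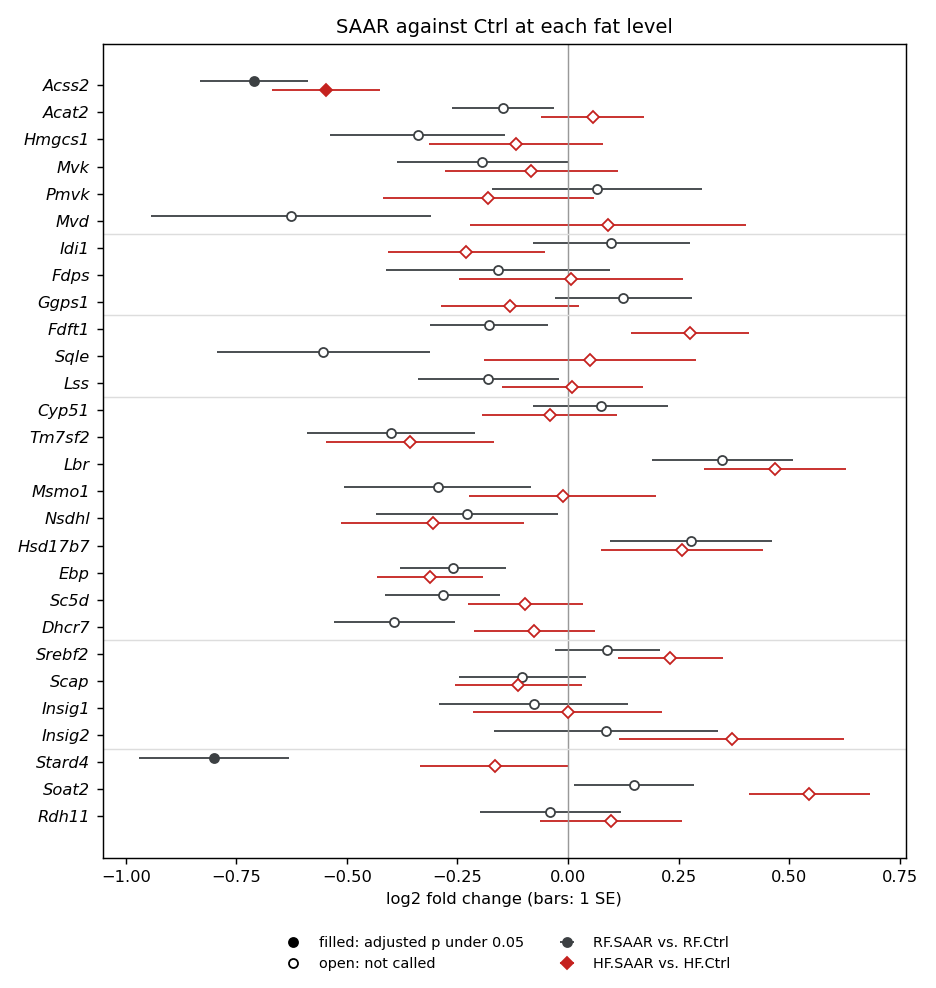
Log2 fold change of SAAR against Ctrl for each of the 28 genes, on the regular-fat and on the high-fat diets, with 1 SE on each side from edgeR's fit. Acss2 lies below 0 on both, and Stard4 lies at -0.80 on the regular-fat and at -0.17 on the high-fat diets.

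The responses to SAAR at both fat levels were set against each other in the interaction of diet and fat, where 0.00682% of all tested genes and 0 of the 28 were called by edgeR, and 0 of the 28 and 0.104% of the genes it tested by DESeq2. An unadjusted p under 0.05 was reached by 2 of the 28 (7.14%), both higher, and by 3.15% of all tested genes. These were Stard4 and Fdft1, the squalene synthase, at 0.46 (SE 0.19, unadjusted p 0.0301, adjusted p 0.999). Fdft1 was at 86, 95.75 and 114.7 normalized CPM in RF.Ctrl and at 90.39, 96.54 and 74.83 in RF.SAAR. It was at 86.21, 91.63 and 76.26 in HF.Ctrl and at 94.79, 114 and 99.01 in HF.SAAR. The regular-fat groups overlapped, and every HF.SAAR mouse was above every HF.Ctrl mouse. Without the 5 mice of high pancreatic acinar RNA the Fdft1 interaction was 0.56. The median interaction of the 28 genes was 0.15 with 20 above and 8 below 0, against 0.00945 over all tested genes. It was 0.00855 without RF.Ctrl mouse 3, 0.05 without HF.SAAR mouse 2, 0.10 without RF.SAAR mouse 3, 0.23 without HF.SAAR mouse 3, and 0.14 without the 5 mice of high pancreatic acinar RNA. Without both RF.Ctrl mouse 3 and HF.SAAR mouse 2 the median was -0.09, with 7 above and 21 below 0.

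Between the fat levels none of the 28 genes passed the threshold in edgeR's test. In HF.Ctrl against RF.Ctrl 0% of the tested genes were called by edgeR, and 0 of the 28. An unadjusted p under 0.05 was reached by 5 of the 28 (17.9%), all lower, and by 3.59% of all tested genes. DESeq2 called 1 of the 28, Acss2 (adjusted p 0.0494), and 0.209% of the genes it tested. The median of the 28 was -0.13, with 21 below 0, and 24 below 0 with library size alone. It was -0.05 without RF.Ctrl mouse 3, -0.04 without HF.Ctrl mouse 3, -0.19 without RF.Ctrl mouse 1 and -0.19 without HF.Ctrl mouse 2. With the 5 mice of high pancreatic acinar RNA left out, it was -0.26. Acss2 stood at -0.50 (SE 0.12, unadjusted p 0.00112, adjusted p 0.585) and ranked at 28 of 14670 genes, with -0.55 without the 5 mice. Groups did not overlap for 4 of the 28 genes, all lower in HF.Ctrl (Dhcr7, Acat2, Acss2 and Soat2), and for 8.51% of all tested genes. This comparison shares its control mice with both comparisons of SAAR.

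Acat2, which joins 2 acetyl-CoA units at the head of the pathway, was at 59.97, 58.72 and 74.75 normalized CPM in RF.Ctrl and at 52.29, 51.21 and 46.94 in HF.Ctrl. Every HF.Ctrl mouse was below every RF.Ctrl mouse. Its log2 fold change was -0.36 (SE 0.12, unadjusted p 0.00782). Acat2 was at 59.21, 61.39 and 54.03 in RF.SAAR and at 49.81, 58.49 and 48.09 in HF.SAAR, groups that overlapped. Dhcr7 was at 36.45, 32.47 and 33.65 normalized CPM in HF.Ctrl and at 33.4, 35.81 and 28.07 in HF.SAAR. Against RF.Ctrl, Dhcr7 in HF.Ctrl stood at -0.37 (SE 0.14, unadjusted p 0.018), and at -0.19 without RF.Ctrl mouse 3. In the fit without the 5 mice of high pancreatic acinar RNA, Acat2 in HF.Ctrl stood at -0.50 and Dhcr7 at -0.48.

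Between the restricted diets, HF.SAAR against RF.SAAR, 0.0477% of all tested genes were called by edgeR and 0.572% of the genes it tested by DESeq2, and 0 of the 28 by either. An unadjusted p under 0.05 was reached by 2 of the 28 (7.14%) and by 5.59% of all tested genes. These were Acss2 at -0.34 (SE 0.12, unadjusted p 0.0151, adjusted p 0.769) and Stard4 at 0.44 (SE 0.17, unadjusted p 0.0206, adjusted p 0.805). Without HF.SAAR mouse 2, Stard4 stood at 0.28. Without the 5 mice of high pancreatic acinar RNA, Stard4 stood at -0.000587, Acss2 at -0.32 and Sqle at 0.18. Sqle followed at 0.51 (SE 0.24, unadjusted p 0.0576, adjusted p 0.908), with 38.91, 37.7 and 48.33 normalized CPM in RF.SAAR and 47.45, 72.75 and 57.23 in HF.SAAR. In the control groups Sqle was at 51.38, 49.1 and 82.95 in RF.Ctrl and at 51.47, 74.5 and 45.42 in HF.Ctrl. The SAAR groups of Sqle overlapped at the lowest HF.SAAR mouse, and each control group held 1 mouse far above the other two. Without HF.SAAR mouse 2 the Sqle difference between the SAAR groups was 0.32. The median of the 28 genes was -0.06 with all mice and -0.06 without the 5 mice of high pancreatic acinar RNA. It was 0.02 without RF.SAAR mouse 2, 0.00665 without HF.SAAR mouse 1, 0.06 without HF.SAAR mouse 3, -0.04 without RF.SAAR mouse 1 and -0.14 without HF.SAAR mouse 2. Groups did not overlap for 1 of the 28 genes, Acss2, and for 10.1% of all tested genes.

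Over both diets, HF against RF, 0.0409% of all tested genes were called and 0 of the 28, and an unadjusted p under 0.05 was reached by 5 of the 28 (17.9%), all lower, and by 5.84% of all tested genes. DESeq2 called 1, Acss2 (adjusted p 0.00191), and 0.834% of the genes it tested. The median of the 28 genes was -0.08, with 18 below 0 and 10 above, against 0.00332 over all tested genes. With 1 mouse left out at a time it ran from -0.14 to -0.02. In edgeR's test Acss2 stood at -0.42 (SE 0.09, unadjusted p 0.000269, adjusted p 0.131), at rank 26 of 14670. Acat2 followed at -0.26 (SE 0.08, adjusted p 0.523). Rdh11, a retinol dehydrogenase whose gene SREBPs are known to switch on, stood at -0.27 (SE 0.11, adjusted p 0.76). Rdh11 was at 45.55, 37.54 and 59.74 normalized CPM in RF.Ctrl and at 37.88, 37.75 and 36.88 in HF.Ctrl. It was at 49.14, 46.39 and 43.35 in RF.SAAR and at 38.87, 48.52 and 33.02 in HF.SAAR. Groups overlapped on both diets, with RF.Ctrl mouse 3 highest of all 12, and without that mouse Rdh11 stood at -0.18. With the 5 mice of high pancreatic acinar RNA left out, Acss2 stood at -0.43, Acat2 at -0.37 and Rdh11 at -0.32.

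Within groups the 28 genes moved together in 2 mice. RF.Ctrl mouse 3 was the highest of its 3 mice for 24 of the 28 genes (85.7%), and for 33.9% of all tested genes. HF.SAAR mouse 2 was the highest of its group for 22 of the 28 (78.6%), and for 33.7% of all tested genes. In RF.SAAR and in HF.Ctrl, mouse 2 was the highest for 14 genes (50%) each, against 36% and 35% of all tested genes. RF.SAAR mouse 3 was the lowest of its group for 19 of the 28, against 31.1% of all tested genes. HF.Ctrl mouse 3 was the lowest of its group for 17, against 39.6%. These counts are descriptions, and the mice were singled out after their values were seen.

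Hmgcs1, which commits acetyl units to HMG-CoA, was at 141.7, 155.7 and 258.4 normalized CPM in RF.Ctrl and at 152.5, 209.9 and 156.4 in HF.SAAR. Msmo1 (sterol C4-methyl oxidase) was at 115.1, 105.1 and 178.4 in RF.Ctrl and at 118.8, 188.6 and 124.9 in HF.SAAR. Mvd was at 9.212, 9.923 and 14.46 in RF.Ctrl and at 7.721, 16.22 and 10.13 in HF.SAAR. In all these genes RF.Ctrl mouse 3 and HF.SAAR mouse 2 stood above their group mates. Leaving out Acss2, the sensing genes and the sterol carrier and ester genes, 18 of 20 enzymes were highest in RF.Ctrl mouse 3 and 18 of 20 in HF.SAAR mouse 2. Insig2 went the other way in RF.Ctrl, at 218.4, 235 and 139.3 normalized CPM, with mouse 3 lowest. Insig1 was highest in RF.Ctrl mouse 2 (111.3, 199.1 and 151.2), unlike most enzymes, and in HF.SAAR mouse 2 (124.3, 215.4 and 144.7), like most of them. The pancreatic acinar sum was 74.2 normalized CPM in RF.Ctrl mouse 3 and 3686 in HF.SAAR mouse 2. The skeletal muscle sum was 508 in the former and 248.6 in the latter.

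**Figure D4:**
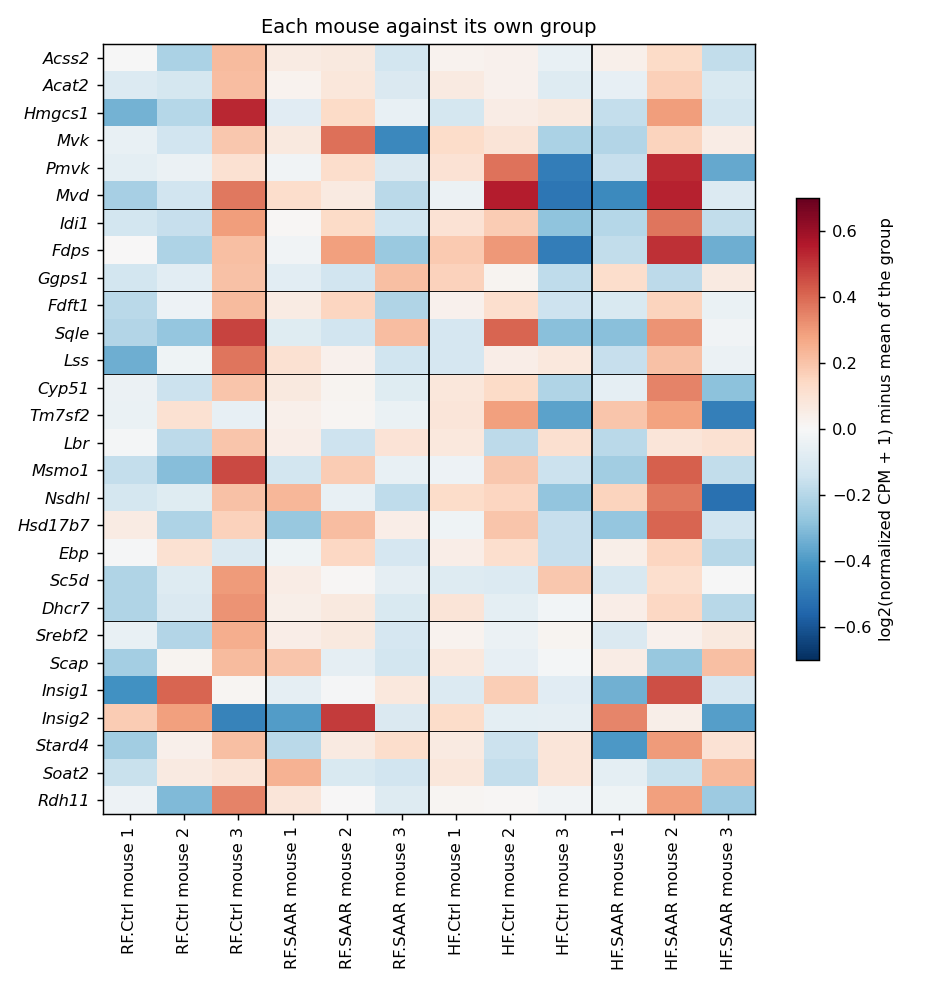
Log2(normalized CPM + 1) of each of the 28 genes in each mouse minus the mean of that mouse's own group, drawn as color. The columns of RF.Ctrl mouse 3 and HF.SAAR mouse 2 are above 0 for 25 of the 28 genes each.

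Without RF.Ctrl mouse 3 and HF.SAAR mouse 2, 0 of the 28 genes were called by edgeR on the regular-fat diets (Acss2 adjusted p 0.0573, Stard4 0.112), Acss2 stayed called on the high-fat diets, and Acss2 and Stard4 stayed called over both. Of the genes tested in that fit, 0.575%, 0.882% and 3.96% were called in these 3 comparisons. In the fit without the 5 mice of high pancreatic acinar RNA, Stard4 was the gene called on the regular-fat diets and over both, and none was called on the high-fat diets, where 1 mouse was left in each group. Of the genes tested in that fit, 0.525% were called on the regular-fat diets, 0.0389% on the high-fat diets and 1.52% over both. The part of the acinar RNA in these results was not tested beyond these fits and a fit with the acinar sum as a covariate, in which Acss2 was called in all 3 comparisons and Stard4 over both fat levels. With that covariate 1.56% of all tested genes were called on the regular-fat diets, 1.92% on the high-fat diets and 7.37% over both.

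Other genes around the pathway were read from lists of known function. Beside their calls stand the shares of all tested genes, 3.22% called higher and 3.7% lower over both fat levels. In RF.SAAR against RF.Ctrl these shares were 0.6% and 0.886%. Single calls were not read as results about a list. The regulators of SREBP processing and INSIG turnover (13 of 13 tested) held 1 gene called over both fat levels, Srebf1. Its product SREBP1 is related to SREBP2 and mainly drives fatty acid synthesis. Srebf1 was at 74.44, 99.44 and 135.1 normalized CPM in RF.Ctrl and at 53.67, 54.24 and 65.23 in RF.SAAR. It was at 70.85, 84.79 and 116.9 in HF.Ctrl and at 42.62, 62.11 and 56.05 in HF.SAAR. At each fat level every SAAR mouse was below every Ctrl mouse. Srebf1 fell by 0.80 (SE 0.16, adjusted p 0.0121, edgeR) over both, with -0.84 (adjusted p 0.109) on the regular-fat and -0.76 (adjusted p 0.139) on the high-fat diets. It stayed called without the 5 mice of high pancreatic acinar RNA (adjusted p 0.00705). Srebf2 itself was at 27.06, 24.19 and 33.73 in RF.Ctrl, 31.13, 31.55 and 27.68 in RF.SAAR, 28.53, 27.24 and 28.47 in HF.Ctrl and 30.61, 33.69 and 34.57 in HF.SAAR, and was called in no comparison on the TMM scale, but higher over both fat levels with library size alone.

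Of genes that supply acetyl-CoA or use HMG-CoA outside sterol synthesis (8 of 8 tested), 1 fell and 1 rose over both fat levels. Aacs, which activates acetoacetate for lipid synthesis, was at 79.13, 42.86 and 47.4 normalized CPM in RF.Ctrl and at 32.3, 18.29 and 31.48 in RF.SAAR. It was at 64.09, 63.55 and 50.9 in HF.Ctrl and at 23.97, 47.43 and 35.33 in HF.SAAR. At each fat level the groups did not overlap, and Aacs fell by 0.89 (SE 0.22, adjusted p 0.0346). Acss1, the mitochondrial acetyl-CoA synthetase, rose by 1.39 (SE 0.39, adjusted p 0.046) from low levels of 0.4604 to 1.259 normalized CPM over the Ctrl mice to 1.06 to 3.801 over the SAAR mice. Without the 5 mice of high pancreatic acinar RNA neither was called (adjusted p 0.116 and 0.199). Effective length offsets also lost both calls (0.0677 and 0.0905). Acss1 was further not called with the acinar covariate (0.0568) or without RF.Ctrl mouse 3 and HF.SAAR mouse 2 (0.0658).

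Among electron donors and helpers of the sterol enzymes (6 of 7 listed genes tested), 1 fell. Cyb5r3, the cytochrome b5 reductase that feeds electrons to sterol desaturases and oxidases, was at 343.7, 384.9 and 371.8 normalized CPM in RF.Ctrl and at 283.9, 281.8 and 267.4 in RF.SAAR. It was at 282, 299 and 260.9 in HF.Ctrl and at 247.8, 229.6 and 231.5 in HF.SAAR. The groups did not overlap at either fat level. Cyb5r3 fell by 0.40 (SE 0.09, adjusted p 0.0404) on the regular-fat diets and by 0.32 (SE 0.06, adjusted p 0.00712) over both fat levels, and under library size alone it was not called (-0.24 and -0.16). With the 5 mice of high pancreatic acinar RNA left out, it was not called either (adjusted p 0.151 and 0.25). The regular-fat call was also lost with effective length offsets (0.082) and without RF.Ctrl mouse 3 and HF.SAAR mouse 2 (0.165).

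Of 17 sterol transport, efflux and LXR target genes, 1 rose over both fat levels. Npc2, which hands cholesterol out of lysosomes, was at 62.66, 69.46 and 61.56 normalized CPM in RF.Ctrl and at 76.64, 85.57 and 81.1 in RF.SAAR. It was at 65.46, 70.28 and 58.4 in HF.Ctrl and at 75.6, 84.01 and 77.1 in HF.SAAR, with no overlap at either fat level. Npc2 rose by 0.31 (SE 0.07, adjusted p 0.0184), and was not called without the 5 mice of high pancreatic acinar RNA (adjusted p 0.207) or without RF.Ctrl mouse 3 and HF.SAAR mouse 2 (0.26, adjusted p 0.0996). The 12 genes of the non-sterol isoprenoid branch held none called, the smallest adjusted p over both fat levels being 0.174 for Coq2 (-0.19), of ubiquinone synthesis, and 0.175 for Rabggtb (0.27), a subunit of the enzyme that adds geranylgeranyl groups to Rab proteins. In HF.SAAR against HF.Ctrl and in the comparisons of fat, none of the 56 tested genes of these 5 lists was called.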

How the data were processed

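Liver RNA from 12 mice (4 diet groups, n = 3 per group, day 7) was sequenced as paired-end polyA libraries. The authors trimmed reads with cutadapt and ran kallisto against the mouse Ensembl transcriptome, and deposited an estimated count, an effective length and a TPM value per transcript and mouse. Here the deposited estimated counts were summed by gene with GENCODE vM21 (GRCm38) and rounded. Of 118489 transcripts 1673 had no match and held 1.08% of counts. The deposited TPM was summed by gene for levels. Members and lists were chosen with earlier results of these data known.

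Genes were filtered with filterByExpr (minimum count 10), scaled by TMM and tested in 1 quasi-likelihood fit to all 12 mice (edgeR 4.0.16, limma 3.58.1, R 4.3.3), with Benjamini-Hochberg adjustment over 14670 genes and a threshold of 0.05. The common biological coefficient of variation was 0.215. P-values set the difference between groups against the spread between mice within groups, an estimate of spread that draws on all groups and other genes. The script was tested on simulated data. Figures were drawn in Python 3.11.15 with matplotlib 3.10.9.

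Members with an adjusted p under 0.05 and the 3 with the smallest p in each comparison were given per mouse, as were called genes of the other lists. Of a list with none called, the 2 genes of smallest p were named. Alternatives were DESeq2 1.42.0, other scalings and low-count filters, effective length offsets, the compared groups alone, the pancreatic acinar genes removed or used as a covariate, and each mouse left out. The fits without RF.Ctrl mouse 3 and HF.SAAR mouse 2, and without the 5 mice above 1000 CPM of acinar genes, were chosen after seeing the data. The labels tag fat content and diet under each other's names, and groups were taken from both values. 1 gene of the electron donor list (Faxdc2) had no match.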

Additional observations from a re-analysis of the deposited data

How the results depend on the processing

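Of the members called, 2 were called on the regular-fat diets, 1 on the high-fat diets, 4 over both fat levels and 0 in the other comparisons, and these counts moved as follows. DESeq2 called 2 on the high-fat diets, 5 over both fat levels, 1 in HF.Ctrl against RF.Ctrl and 1 in HF against RF. Library size alone called 1 on the regular-fat diets, 5 over both and, on the high-fat diets, Soat2 in place of Acss2. Without the low-count filter 2 were called on the high-fat diets and 3 over both. Effective length offsets called 1 on the regular-fat diets, 0 on the high-fat diets and 1 over both. The compared groups alone called 0 on the high-fat diets. The acinar covariate called 1 on the regular-fat diets and 2 over both. Without RF.Ctrl mouse 3 and HF.SAAR mouse 2, 0 were called on the regular-fat diets and 2 over both. Without the 5 mice of high acinar RNA, 1 was called on the regular-fat diets, 0 on the high-fat diets and 1 over both, and Stard4 in HF.SAAR against RF.SAAR reversed to -0.000587. The last fit assumes that the lone mouse of each high-fat group varies like the other groups. Leaving out each mouse in turn gave 0 to 2 on the regular-fat diets, 0 to 2 on the high-fat diets, 1 to 5 over both and 0 in the other comparisons. Among single named members, 429 values stayed on their side of the threshold, 60 lost and 6 gained the call, with 1 reversed. Shares over all genes are given above for only some of these settings. Elsewhere a moved count of members called cannot be read as a result about the members. The cause of the changed counts and calls was not tested, and the fits that leave mice out also hold fewer mice. No paired analysis was possible because the labels give no replicate numbers. The compared groups alone were not run for the averages over diets or fat levels and for the interaction. With 3 mice per group, changes smaller than the spread between mice were not detectable.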

Other observations

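Tm7sf2 and Lbr both encode C14 sterol reductases, and their levels in TPM were compared within each mouse, a comparison chosen after their values were seen. Tm7sf2 was higher than Lbr by 34.1 to 42.8 times in RF.Ctrl (median 38.1) and by 20.3 to 26.9 times in RF.SAAR (median 23). It was higher by 26.3 to 54.7 times in HF.Ctrl (median 41) and by 14.9 to 30.2 times in HF.SAAR (median 27). The regular-fat groups did not overlap and the high-fat groups did. These ratios are descriptions and were not tested.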
